A study of Mus musculus with 6 samples.

Results

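Slpi, Wfdc17, Wfdc21 and Tgm3 were followed through 6 single-cell RNA libraries of mouse granulocyte-macrophage progenitor-like cells, as 4 of the 27998 genes in the deposited count table. Slpi and Tgm3 were chosen by their fold change, being among the largest differences between CAF-1 OFF at 96 h and its own 0 h library, and Wfdc17 and Wfdc21 were listed with them as further members of the whey acidic protein family. The levels of Slpi and Tgm3 in CAF-1 OFF are therefore given as a description, and no test was made of them. All 6 groups were Lys-GFP ER-HOXA9 cells of strain C57BI/6, that is, marrow progenitors with a green reporter in the lysozyme locus, held in self-renewal by HOXA9 fused to an estrogen receptor domain and grown with stem cell factor. In CAF-1 OFF, a clone whose IPTG-inducible hairpin targets Chaf1b, part of the CAF-1 complex that places histones on new DNA, was kept in estradiol and treated with IPTG. In HOXA9 OFF, estradiol was withdrawn, which switches the HOXA9 fusion off, in a clone that carried a control hairpin vector. Each arm had 1 library at 0 h, in estradiol and without IPTG, 1 at 48 h and 1 at 96 h, so there were 6 groups of 1 library and no replicate check on any difference. The arms were separate clones, and clone and treatment cannot be told apart between them.

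SLPI, the secretory leukocyte protease inhibitor, binds and blocks neutrophil elastase and cathepsin G, and it is made by mucosal epithelia and by granulocytes. It is built from whey acidic protein four-disulfide core (WFDC) domains, the small cysteine-rich fold that also gives Wfdc17 and Wfdc21 their names; these are mouse genes that lie near each other and encode small secreted proteins seen in activated macrophages and in neutrophils. Tgm3 encodes a calcium-dependent transglutaminase best known from epidermis and hair follicle, where it cross-links structural proteins of the cornified envelope. Serine proteases such as elastase are packed into primary granules at the promyelocyte stage of neutrophil development, and secondary granule proteins such as lactoferrin follow later.

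After removal of barcodes over 10% mitochondrial UMIs (unique molecular identifiers, the counted RNA molecules), the libraries held 473 to 1510 cells, 5872 in all, and 3524285 to 5589486 UMIs. The share of deposited barcodes removed ranged from 0.198% in HOXA9 OFF at 96 h to 66.2% in HOXA9 OFF at 0 h. The median UMIs per cell were 6571, 5998 and 5956 from 0 to 96 h of CAF-1 OFF, and 8660, 3535.5 and 2043.5 for HOXA9 OFF. Between 0 and 7 barcodes were shared by each of the 15 pairs of libraries, and without the 32 cells concerned Slpi in CAF-1 OFF at 96 h was at 4363 CPM (UMIs of a gene as a share of all UMIs of the library, in the usual counts-per-million unit) instead of 4342. Chaf1b, the target of the hairpin, was at 35.6, 3.22 and 6.49 CPM at 0, 48 and 96 h of IPTG, and it was also lower after estradiol withdrawal, at 51.5, 15.3 and 1.13 CPM.

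The promoter windows of 3 members are shown because Slpi and Tgm3 were high in the same CAF-1 OFF libraries while Wfdc17 was not. Each runs from 250 bases before to 50 bases after the RefSeq start on GRCm38.p6, read 5′ to 3′ on the gene's strand, with matches to the searched motifs in capitals. Slpi lies at chr2:164354070-164356507 on the minus strand, and its window at chr2:164356458-164356757. Wfdc17 lies at chr11:83704056-83706269 and its window at chr11:83703806-83704105. Tgm3 lies at chr2:129987794-130050399 and its window at chr2:130012090-130012389, inside the annotated gene because the start used belongs to a later first exon. Wfdc21 lies at chr11:83746940-83752646.
Slpi: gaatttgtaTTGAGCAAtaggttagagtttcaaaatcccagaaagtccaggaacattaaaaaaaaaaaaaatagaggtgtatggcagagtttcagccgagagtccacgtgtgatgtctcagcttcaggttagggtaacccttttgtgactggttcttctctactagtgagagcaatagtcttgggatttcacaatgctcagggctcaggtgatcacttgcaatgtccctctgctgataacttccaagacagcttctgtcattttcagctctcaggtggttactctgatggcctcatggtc
Wfdc17: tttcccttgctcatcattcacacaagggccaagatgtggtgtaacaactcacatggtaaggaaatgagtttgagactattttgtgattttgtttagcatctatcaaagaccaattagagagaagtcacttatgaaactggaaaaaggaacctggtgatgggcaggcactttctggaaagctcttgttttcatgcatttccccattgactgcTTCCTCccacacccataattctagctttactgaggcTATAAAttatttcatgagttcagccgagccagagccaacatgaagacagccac
Tgm3: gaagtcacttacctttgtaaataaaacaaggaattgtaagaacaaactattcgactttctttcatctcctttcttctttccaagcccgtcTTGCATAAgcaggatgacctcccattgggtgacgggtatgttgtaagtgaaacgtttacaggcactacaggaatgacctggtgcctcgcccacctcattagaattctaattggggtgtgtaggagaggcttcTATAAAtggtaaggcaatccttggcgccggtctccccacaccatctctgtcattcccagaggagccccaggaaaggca

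The C/EBP-type letters TTGCNNAA, searched on both strands, matched the Slpi window as TTGAGCAA at position -241 from the start, on the other strand, and the Tgm3 window as TTGCATAA at position -160. These letters were found in 10.8% of 32851 promoter windows of the same length. The TATA letters TATAAA, found in 13.6% of all windows, stood at -28 from the Tgm3 start and at -3 from the Wfdc17 start. The PU.1-type core GAGGAA, found in 28.3% of windows, was matched in Wfdc17, as TTCCTC at position -39. The ETS-type letters CCGGAA and the GATA-type letters AGATAA, found in 14.9% and 11.2% of windows, were not present in these 3 windows. The GC share was 43.3% for Slpi, 42.0% for Wfdc17 and 46.7% for Tgm3, against a median of 52.7% over all windows.

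Slpi had at least 594 UMIs in every library, the most of the members. The summed level of Slpi went from 141 to 2016 to 4342 CPM over 0, 48 and 96 h of CAF-1 depletion, and from 152 to 1786 to 1398 CPM after estradiol withdrawal. Slpi was thus low at 0 h in both clones, with a ratio of HOXA9 OFF to CAF-1 OFF of 1.08 (95% interval 0.961 to 1.21), and far higher in each later library. Against its own 0 h library, Slpi was 14.3-fold higher (13.2 to 15.6) at 48 h and 30.8-fold higher (28.4 to 33.5) at 96 h of CAF-1 OFF. In HOXA9 OFF Slpi was 11.8-fold higher (10.9 to 12.8) at 48 h and 9.21-fold higher (8.48 to 10.0) at 96 h. From 48 to 96 h, Slpi went on to a level 2.15 times as high in CAF-1 OFF and to 0.783 times its level (0.756 to 0.811) in HOXA9 OFF. All intervals here cover the counting of UMIs only, not the spread between cultures. At 96 h the Slpi level in CAF-1 OFF was 3.11 times (3.01 to 3.20) that in HOXA9 OFF, and at 48 h the ratio was 1.13 (1.10 to 1.16), a gap smaller than the shift that other scalings of the HOXA9 OFF library give.

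**Figure D1:**
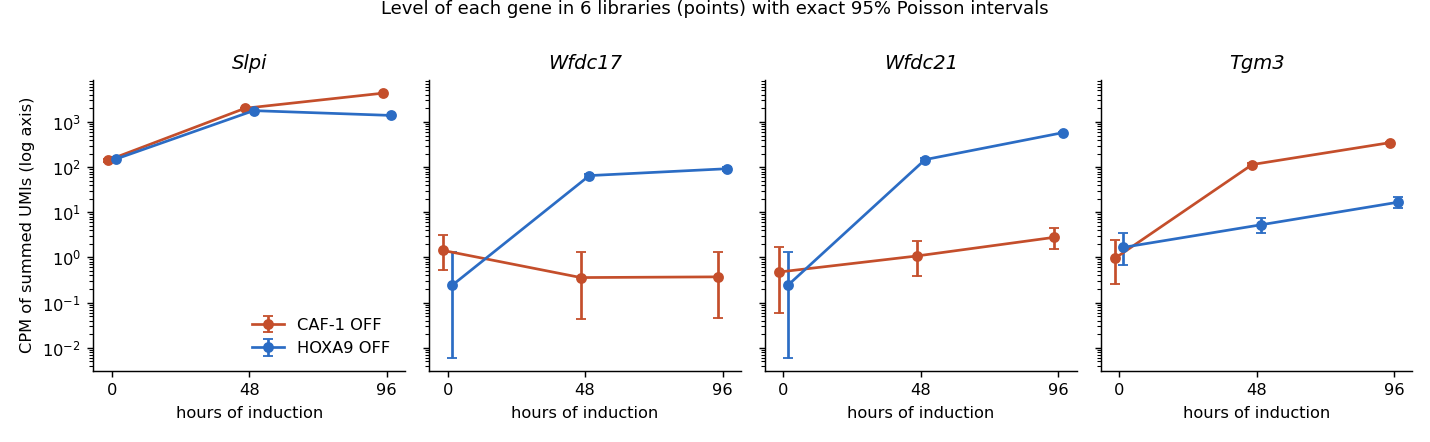
Summed level of each member in CPM (log axis) in the 6 libraries, against hours of treatment, for CAF-1 OFF and HOXA9 OFF; bars are exact 95% Poisson intervals for counting error only, with 1 library per point. Slpi is high in both arms from 48 h, Tgm3 reaches 348 CPM after CAF-1 depletion and 16.7 CPM after estradiol withdrawal, and Wfdc17 and Wfdc21 stay under 3 CPM throughout CAF-1 OFF.

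Tgm3 followed Slpi in CAF-1 OFF and stayed low in HOXA9 OFF. The counted UMIs of Tgm3 were 4, 638 and 1877 along the CAF-1 OFF course and 7, 28 and 59 along that of HOXA9 OFF, which is 0.949, 114 and 348 CPM and 1.67, 5.27 and 16.7 CPM. Tgm3 was therefore near the counting floor of 3 UMIs in both 0 h libraries. Tgm3 in CAF-1 OFF was 120 times (46.7 to 443) its 0 h level at 48 h and 367 times (143 to 1347) at 96 h, with a 3.05-fold step (2.79 to 3.34) between 48 and 96 h. In HOXA9 OFF, Tgm3 was 3.16-fold (1.35 to 8.56) above 0 h at 48 h and 10.0-fold (4.57 to 26.0) above it at 96 h. The level of Tgm3 in CAF-1 OFF exceeded that in HOXA9 OFF by 21.6 times (14.8 to 32.8) at 48 h and by 20.8 times (16.0 to 27.4) at 96 h, so the ratio between arms was much the same at the 2 times although both levels were higher at 96 h.

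Wfdc21 and Wfdc17 showed the opposite split between arms. Wfdc21 had 2, 6 and 15 UMIs along the CAF-1 OFF course and 1, 780 and 2040 UMIs along that of HOXA9 OFF, which is 0.475, 1.07 and 2.78 CPM and 0.239, 147 and 579 CPM. Wfdc17 had 6, 2 and 2 UMIs along the CAF-1 OFF course and 1, 345 and 325 UMIs along that of HOXA9 OFF, which is 1.42, 0.358 and 0.371 CPM and 0.239, 65.0 and 92.2 CPM. Both genes were thus measured well in the 48 h and 96 h libraries of HOXA9 OFF and hardly at all elsewhere. With 1 UMI at 0 h, the ratios to 0 h in HOXA9 OFF were poorly bounded, at 615 (110 to 24340) and 2425 (435 to 95847) for Wfdc21 and 272 (48.5 to 10783) and 386 (68.9 to 15309) for Wfdc17. The step from 48 to 96 h was better measured for Wfdc21, at 3.94-fold (3.63 to 4.29). For Wfdc17 it was 1.42-fold (1.22 to 1.66), but that interval does not cover its uneven spread over cells. At 96 h, 1 cell held 81 of the 325 UMIs. Without the cell with the most Wfdc17, the level was 59.5 CPM at 48 h and 69.4 CPM at 96 h. In cells cut to equal depth, as described below, the mean was 0.115 UMIs at 48 h and 0.0778 at 96 h. The direction of this step for Wfdc17 therefore depended on the measure. Wfdc21 in CAF-1 OFF at 96 h was 5.86 times its 0 h level (1.36 to 52.8), a ratio resting on 2 UMIs at 0 h, and its log2 ratio turned from 0.29 to -0.12 in cells with at most 5% mitochondrial UMIs. At 96 h the HOXA9 OFF level was 208 times (126 to 373) that of CAF-1 OFF for Wfdc21 and 249 times (68.3 to 2063) for Wfdc17, the latter against 2 UMIs.

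Counted over all genes, 4789 genes averaged 20 CPM or more across the libraries, and the 4 members were among them, Wfdc17, Wfdc21 and Tgm3 through the libraries in which they are high. On the log2 scale of CPM plus 10, which understates the change of low genes, 2 of 4 members, Slpi at 3.75 and Tgm3 at 3.50, were at least 2-fold higher at 48 h of CAF-1 OFF, where 2.76% of all genes were, and 0 of 4 were lower, where 0.0418% of genes were. At 96 h of CAF-1 OFF the same 2 of 4 were higher, at 4.85 and 5.03, against 5.22% of genes, and 0 of 4 were lower, against 0.856%. Wfdc17 and Wfdc21 were at -0.14 and 0.29 there. Nothing is read from the counts of members at 48 h or at 96 h of CAF-1 OFF. The difference at 96 h chose Slpi and Tgm3, and that at 48 h uses the same 0 h library. In HOXA9 OFF at 48 h 3 of 4 members were at least 2-fold higher, Slpi at 3.47, Wfdc17 at 2.87 and Wfdc21 at 3.94, where 13% of all genes were, and 0 of 4 were lower, where 19.6% were; Tgm3 was at 0.39. At 96 h all 4 were higher, against 18.1% of genes, and 0 of 4 were lower, against 39.8%. Wfdc21 was at 5.85, Wfdc17 at 3.32, Slpi at 3.12 and Tgm3 at 1.20 (0.37 with a pseudocount of 50 CPM, which ends that call). Wfdc17 and Wfdc21 averaged 20 CPM only through these HOXA9 OFF libraries, so nothing is read from the HOXA9 OFF counts of members either. The median log2 ratio over all 4789 genes was 0.00 and -0.08 at the later times of CAF-1 OFF, and it was -0.23 and -0.56 for HOXA9 OFF. Other scalings moved the HOXA9 OFF medians, by 0.25 at 48 h and 0.38 at 96 h with trimmed-mean factors, by 0.20 and 0.44 with median-of-ratios factors and by -0.02 and -0.31 with mitochondrial and ribosomal protein genes left out of the total. No member that was at least 2-fold higher changed direction under them, and Slpi in HOXA9 OFF stayed lower at 96 h than at 48 h, most narrowly with median-of-ratios factors, at log2 ratios of 3.68 and 3.70.

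Ordered from the highest, Slpi and Tgm3 stood at places 3 and 2 of 4789 log2 ratios at 96 h of CAF-1 OFF, and at places 194 and 749 at 96 h of HOXA9 OFF. Wfdc21 and Wfdc17 were at places 27 and 173 in HOXA9 OFF at 96 h and at 1093 and 2698 in CAF-1 OFF. The places of Slpi and Tgm3 in CAF-1 OFF follow from how they were chosen, and nothing is read from the order.

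Over the 6 libraries, the gene whose centred profile lay closest to that of Slpi was Cebpe, a transcription factor of granulocyte maturation, at a root mean square difference of 0.58 on the log2 scale. Acpp, Ly6c2, Fcgr2b and Lyz1 followed at 0.87 to 1.00. The nearest to Tgm3 were Mmp13, Cxcl3, Raet1e, Fbp1 and Myct1, at 0.54 to 0.80, so no gene matched Tgm3 closely. Wfdc17 had much nearer neighbours, Ear2, Myo1f, Csf1r, Ap1s2 and Cfp, at 0.13 to 0.18; Csf1r is the receptor of the macrophage growth factor M-CSF and Ear2 a ribonuclease of eosinophils and macrophages. Wfdc21 was nearest to Cybb, the catalytic subunit of the phagocyte NADPH oxidase, at 0.16, and then to Slfn2, Cd52, Ypel3 and Lsp1 at 0.36 to 0.42. These distances describe 6 libraries that share a platform and 2 clones. With a pseudocount of 1 CPM, 3 of the 5 genes stayed among the nearest 5 of Slpi, 3 for Tgm3, 1 for Wfdc17 and 2 for Wfdc21, so that the names depend on how low counts are weighted.

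Of the 24 genes of the WFDC family, 12 had any UMI, and the 3 members were the only ones above the minimum level. The other 21 had at most 8 UMIs in any library, the highest being Wfdc12 at 48 h of CAF-1 OFF. Slpi supplied nearly all WFDC signal in CAF-1 OFF, where the family summed to 143, 2021 and 4347 CPM, while in HOXA9 OFF at 96 h the family summed to 2070 CPM and Slpi to 1398.

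Of 9 transglutaminase family genes, 6 had a UMI and 3 passed the minimum level. In CAF-1 OFF at 96 h 1 of the 3, Tgm3 itself, was at least 2-fold higher and 0 were lower, with a median log2 ratio of 0.56, where 5.22% and 0.856% of all genes were. In HOXA9 OFF at 96 h 2 were higher, Tgm2 and Tgm3, and 0 lower, with a median of 1.20, where 18.1% and 39.8% of all genes were; a pseudocount of 50 CPM ends the call of Tgm3. Tgm3 was chosen by its level in CAF-1 OFF, and Tgm2 passed the minimum level through HOXA9 OFF, so nothing is read from these counts. Tgm2, the widely expressed tissue transglutaminase, had 3, 19 and 31 UMIs along the CAF-1 OFF course and 8, 526 and 130 along that of HOXA9 OFF, so it was 51.9-fold higher (26.1 to 121) at 48 h of HOXA9 OFF. F13a1, the factor XIII subunit made by monocytes and megakaryocytes, stayed within 89.7 to 216 CPM in all 6 libraries. Tgm1, the other transglutaminase known from epidermis, was under the minimum mean level but shared the direction of Tgm3, with 22, 162 and 303 UMIs in CAF-1 OFF, a 10.8-fold higher level (6.98 to 17.4) at 96 h, and 10, 7 and 2 UMIs in HOXA9 OFF. Epb42, an inactive relative known from the red cell membrane, had 0, 8 and 12 UMIs in CAF-1 OFF and none in HOXA9 OFF.

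The skin partners of Tgm3 were largely undetected. Of 18 cornified envelope and keratinocyte genes, including loricrin, filaggrin and the keratins, 2 had any UMI and 0 passed the minimum level. Involucrin (Ivl) had 3, 5 and 1 UMIs in CAF-1 OFF, where Tgm3 was high, and 10, 29 and 71 in HOXA9 OFF, where it was low.

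The granule serine proteases, among them the targets of SLPI, were mostly higher with Slpi in CAF-1 OFF and lower in HOXA9 OFF at 96 h. Of 9 such genes 5 passed the minimum level; 3 were at least 2-fold higher and 0 lower at 96 h of CAF-1 OFF, with a median log2 ratio of 1.96, against 5.22% higher and 0.856% lower of all genes and a median of -0.08. At 96 h of HOXA9 OFF 0 were higher and 4 lower, with a median of -4.12, against 18.1% higher and 39.8% lower of all genes and a median of -0.56. Elane, neutrophil elastase, was at 129, 913 and 1386 CPM along the CAF-1 OFF course and at 48.2, 512 and 3.69 CPM along that of HOXA9 OFF. Ctsg, cathepsin G, was at 3472, 4131 and 5951 CPM along the CAF-1 OFF course and at 3309, 833 and 11.6 CPM along that of HOXA9 OFF. Elane therefore peaked at 48 h of HOXA9 OFF and was nearly gone at 96 h, while Slpi stayed high. Expressed per 100 UMIs of Elane and Ctsg together, as an index to compare libraries, Slpi was at 3.91 (3.60 to 4.25), 40.0 and 59.2 along the CAF-1 OFF course and at 4.52, 133 (129 to 137) and 9126 (6983 to 12166) along that of HOXA9 OFF. The last value rests on 54 protease UMIs.

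Among 25 other protease inhibitors of leukocytes, 20 had a UMI and 9 passed the minimum level. At 96 h 3 were at least 2-fold higher and 0 lower in CAF-1 OFF, with a median log2 ratio of 0.68, where 5.22% and 0.856% of all genes were. In HOXA9 OFF 6 were higher and 2 lower, with a median of 2.34, where 18.1% and 39.8% of all genes were. Stfa2 and Stfa3, described below, passed the minimum level only through HOXA9 OFF, so nothing is read from these counts. Serpinb2, an inhibitor of plasminogen activators, had no UMI at 0 h in either arm and at 96 h reached 109 CPM after CAF-1 depletion and 54.8 CPM after estradiol withdrawal. Serpinb1a, another inhibitor of elastase and cathepsin G, stood at 1181 to 1902 CPM along the CAF-1 OFF course and 1108, 1168 and 464 CPM along that of HOXA9 OFF. The stefins Stfa2 and Stfa3, cysteine protease inhibitors, shared the HOXA9 OFF pattern of Wfdc21, with 61 and 334 UMIs at 48 h and 9517 and 10051 at 96 h, against at most 1 UMI in CAF-1 OFF. They belong to a cluster of near-identical copies, and how reads shared among them were assigned is not given in the sources used here. Cst7, a cystatin, was 31.9-fold lower (22.7 to 46.3) at 96 h of HOXA9 OFF.

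**Figure D2:**
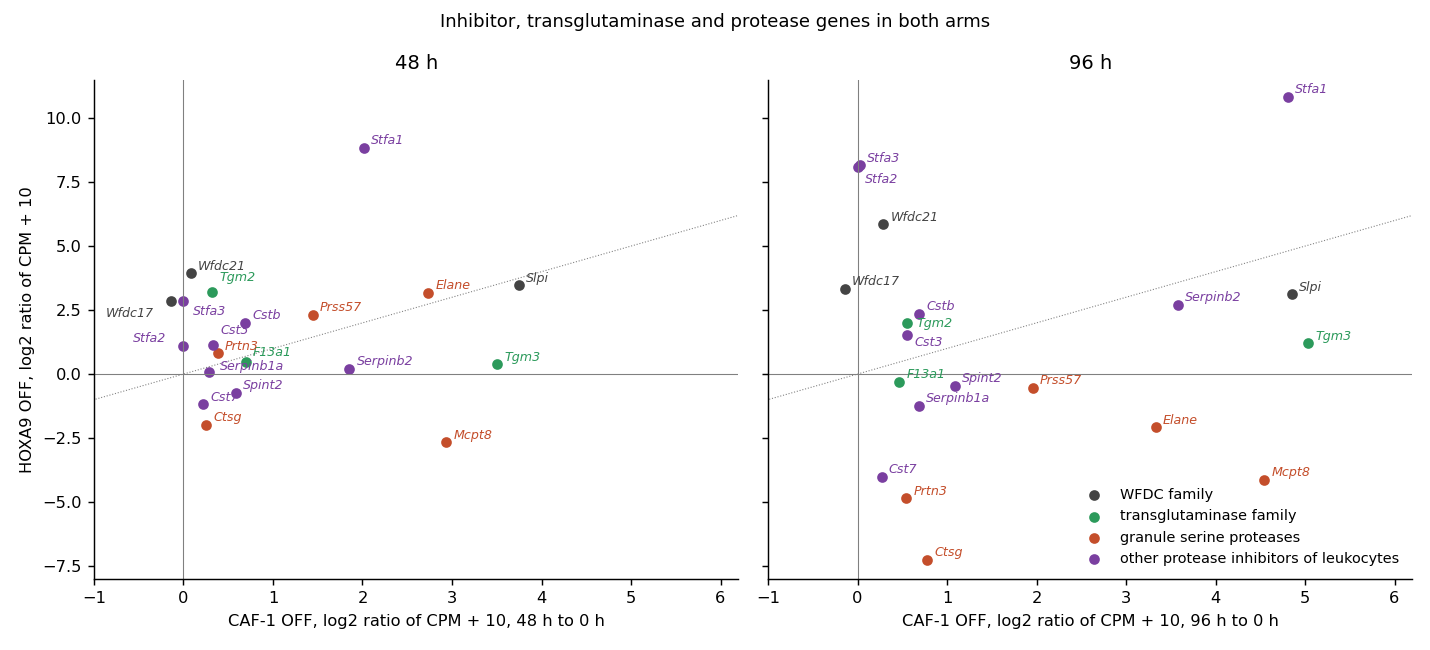
Log2 ratio of CPM plus 10 to the 0 h library in CAF-1 OFF (x) against HOXA9 OFF (y), at 48 h and 96 h, for the genes of 4 families above the minimum level; each point is a gene and the dotted line marks equal ratios. At 96 h Slpi and Tgm3 lie far to the right at 4.85 and 5.03, Wfdc21 and Wfdc17 lie near 0 on x and at 5.85 and 3.32 on y, and the granule proteases lie below 0 on y.

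Markers of neighbouring cell states moved with these levels. The late granulocyte list, 11 genes, summed to 33.5, 719 and 1194 CPM along the CAF-1 OFF course and to 29.8, 10358 and 151571 CPM along that of HOXA9 OFF. At 48 h of CAF-1 OFF 3 of the 11 were at least 2-fold higher, 0 lower and 8 neither. The median log2 ratio was 0.12, and 2.76% of all genes were higher and 0.0418% lower. At 96 h of CAF-1 OFF the counts were the same, with a median of 0.51, against 5.22% higher and 0.856% lower of all genes. The sums in CAF-1 OFF thus do not describe most genes of the list. Ltf had no UMI in any CAF-1 OFF library, and all 11 were detected at 96 h of HOXA9 OFF. The early granulocyte list, 6 genes, was at 426, 2361 and 4417 CPM along the CAF-1 OFF course and at 408, 3732 and 1859 CPM along that of HOXA9 OFF. The monocyte list, 8 genes, summed to between 489 and 929 CPM, but its members did not all move the same way. The minimum level, a mean over all 6 libraries, was passed by 6 of them. At 48 h of HOXA9 OFF 4 were at least 2-fold higher and 1 lower, with a median log2 ratio of 2.20. Of all genes, 13% were higher and 19.6% lower there. At 96 h 3 were higher and 1 lower, with a median of 2.17, against 18.1% higher and 39.8% lower of all genes. A gene can pass that mean through the libraries in which it is high, so no excess over all genes is read from these counts. The progenitor list was at 6685, 3988 and 115 CPM, the eosinophil list at 1481, 19339 and 3288 CPM and the mast cell or basophil list at 829, 533 and 85.1 CPM through estradiol withdrawal; through CAF-1 depletion the mast cell or basophil list went from 287 to 4050 CPM and the eosinophil list from 228 to 1265 CPM. The megakaryocyte list reached 2697 CPM at 96 h of CAF-1 OFF and at most 77.0 CPM in HOXA9 OFF, and the keratinocyte list never passed 20.1 CPM. The part of these lists in the levels of the 4 members was not tested, and in summed libraries more cells of a type and more RNA per cell cannot be told apart. For that, the single cells were examined.

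To compare libraries of unequal depth, each cell was thinned to 1300 UMIs, and the cells below that, 1 to 134 per library, were left out. A UMI of Slpi was then found in 13.7%, 57.0% and 87.1% of cells through CAF-1 depletion and in 11.4%, 76.3% and 71.4% through estradiol withdrawal; without thinning the shares were 31.8%, 77.3%, 97.6%, 34.0%, 90.8% and 82.1%. At 48 h the share was higher in HOXA9 OFF and the CPM higher in CAF-1 OFF, so no order between the arms is given there. Tgm3 was found in 10.4% of thinned cells at 48 h and 28.4% at 96 h of CAF-1 OFF, and in 0.654% and 2.83% in HOXA9 OFF. Wfdc21 was found in 11.6% and 29.1% of HOXA9 OFF cells at 48 and 96 h, and in 0 of 633 and 0 of 472 cells at 0 h of the arms, for which 3 counts of the total allow shares of up to 0.474% and 0.636% (exact upper limits 0.581% and 0.778%). Wfdc17 was found in 5.74% and 4.14% of HOXA9 OFF cells, and since its CPM was the higher at 96 h, no order is read from these shares.

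Cells rich in genes of another type were set beside the rest of the same library, to look at stray RNA. At 48 h of HOXA9 OFF, 122 cells drew over 10% of their UMIs from eosinophil genes, with a median of 3747.5 UMIs against 3527 in the other 1282. Wfdc17, Wfdc21 and Tgm3 each had a UMI in 0 of these 122 cells, for which 3 counts of the total allow a share of up to 2.46% (exact upper limit 2.98%). Slpi had a UMI in 77.9% of them, at 866 CPM, against 92.0% and 1872 CPM in the other cells, while S100a8 had a UMI in 27.0% of them. Slpi was therefore in these cells at a share above that of S100a8, whose level in the other cells, 4367 CPM, was the higher. In turn Prg2, a gene of the eosinophil list, had a UMI in 78.4% of the other 1282 cells, at 3867 CPM. How much of the Slpi or Prg2 signal was stray RNA was not tested. No other library held at least 50 cells with over 10% of UMIs from eosinophil genes.

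The spread of Slpi over cells differed between arms. In CAF-1 OFF at 48 h the quartiles were 1, 4 and 18 UMIs per cell with a highest value of 112, and at 96 h they were 7, 19 and 37 with a highest value of 182. In HOXA9 OFF the quartiles were 2, 5 and 9 at 48 h and 1, 2 and 5 at 96 h. After thinning, the Fano factor (variance over mean) of Slpi was 5.84 and 5.17 along the CAF-1 OFF course and 2.35 and 2.31 along that of HOXA9 OFF. At 48 h of CAF-1 OFF 43.0% of thinned cells had no Slpi UMI while 6.95% had 10 or more, against 23.7% and 1.53% in HOXA9 OFF; at 96 h 20.1% and 0.799% had 10 or more. For Tgm3, at means of 0.132 and 0.418 UMIs per thinned cell against 2.70 and 5.63 for Slpi, the Fano factor was 1.57 and 1.49. Before thinning, the tenth of cells with the most Tgm3 held 71.5% and 47.0% of its UMIs at 48 and 96 h, against 44.1% and 31.3% for Slpi.

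**Figure D3:**
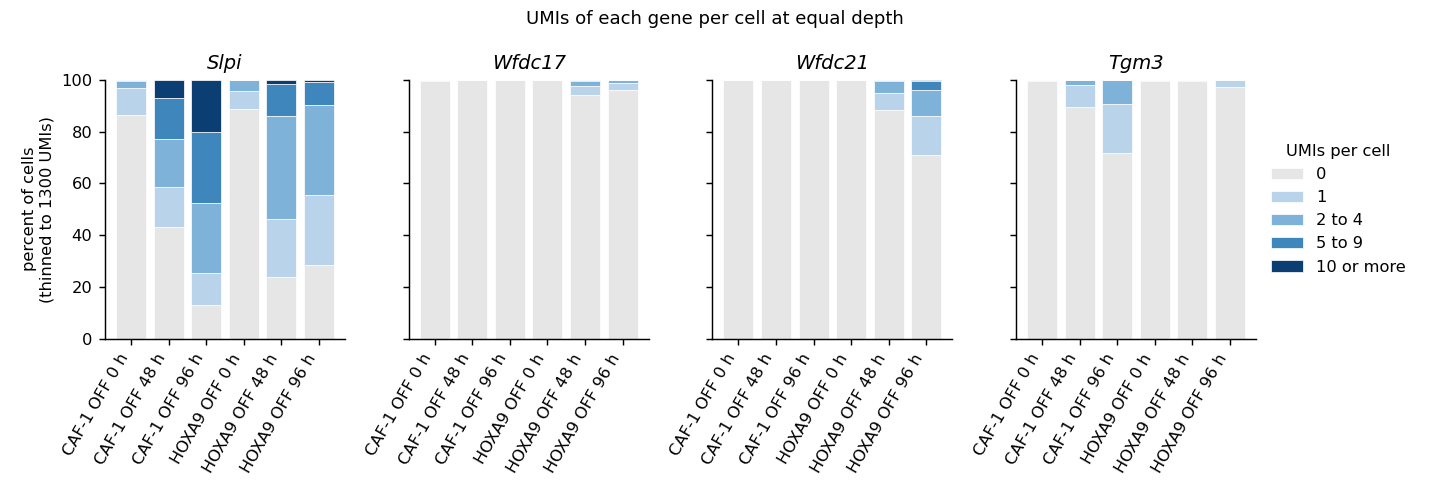
Share of cells (percent) by the number of UMIs of each member per cell after thinning to 1300 UMIs, in all 6 libraries; shades stand for 0, 1, 2 to 4, 5 to 9 and 10 or more UMIs. For Slpi at 48 h, CAF-1 OFF has more cells without a UMI (43.0% against 23.7%) and more cells with 10 or more (6.95% against 1.53%) than HOXA9 OFF.

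Within CAF-1 OFF at 48 h, Slpi, Tgm3 and Elane were found in the same cells more often than the product of their shares. Slpi and Tgm3 were both detected in 84 thinned cells, 1.57 times (1.26 to 1.92) the product; Slpi was in 89.4% of cells with a Tgm3 UMI and in 53.3% of those without. At 96 h they shared 242 cells, 1.08 times (0.969 to 1.21) the product, with Slpi then in 94.5% and 84.2%. Slpi was in 57.0% of all thinned cells at 48 h and in 87.1% at 96 h. The higher the share of a gene, the less room the ratio has above 1. Such ratios are therefore not compared between 48 and 96 h, here or below. Their intervals cover the share of cells with both genes only. The mean Slpi count per thinned cell at 48 h was 1.07, 2.87, 5.61 and 8.15 in cells with 0, 1, 2 to 4 and 5 to 9 UMIs of Elane. For 96 h the means were 3.37, 4.86, 7.71 and 9.82. In HOXA9 OFF at 48 h the same bins gave 2.16, 2.42, 2.73 and 2.84, so the gradient of Slpi with Elane was much shallower there.

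Slpi and Elane shared cells at 1.51 times (1.38 to 1.65) the product at 48 h of CAF-1 OFF, Tgm3 and Elane at 1.91 times (1.51 to 2.38), and Tgm3 and Pf4, the platelet factor 4 gene, at 2.09 times (1.60 to 2.66). Cpa3, a mast cell protease, shared cells with Slpi at 0.925 and with Tgm3 at 0.788 times the product. The share of cells with Tgm3 also went up with the Slpi count, from 2.56% of cells with no Slpi UMI to 28.6% of cells with 10 or more at 48 h, and from 12.1% to 39.8% at 96 h. A cell with more RNA captured can hold more of every gene, and thinning to 1 depth removes that only in part.

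**Figure D4:**
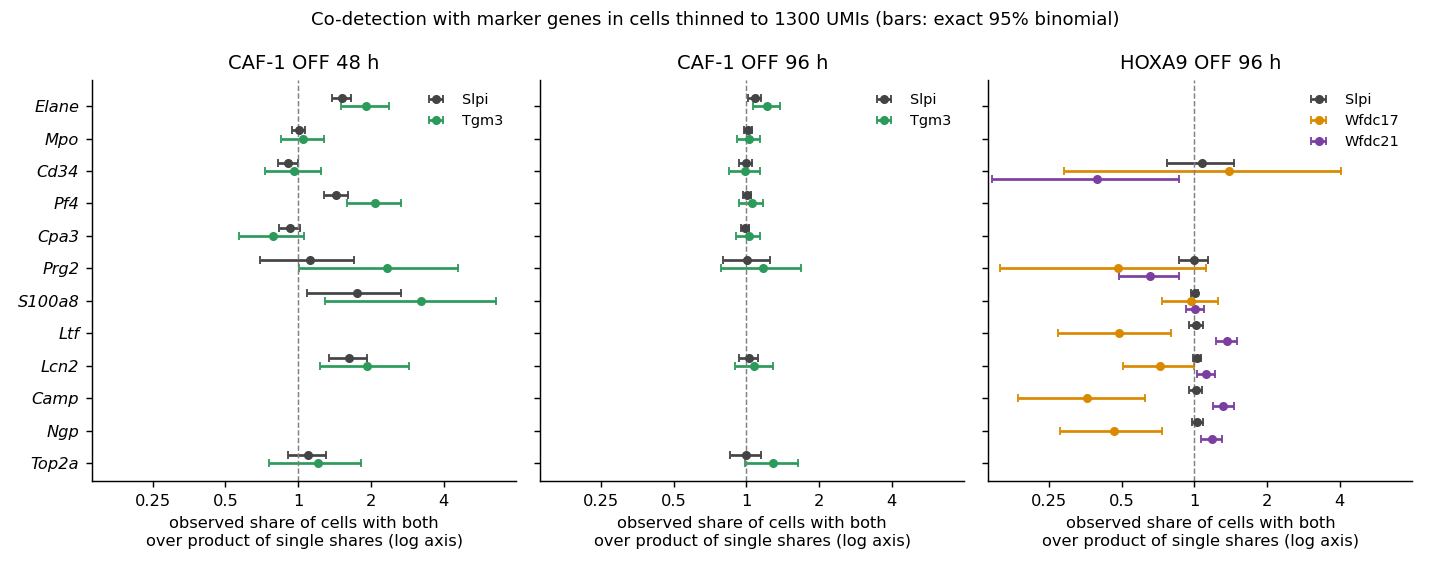
Ratio of the observed share of cells with both genes to the product of their shares (log axis), for members with 12 marker genes in 3 libraries of cells thinned to 1300 UMIs; bars are exact 95% binomial intervals of the observed share only, and 1 means the product. Elane with Tgm3 is at 1.91 at 48 h and 1.22 at 96 h of CAF-1 OFF, and at 96 h of HOXA9 OFF Wfdc21 lies above 1 and Wfdc17 below 1 with Ltf, Camp and Ngp. The higher the share of a gene, the less room the ratio has above 1, so ratios are not compared between 48 and 96 h.

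In CPM, the contrast between cells with and without Slpi differed by arm, most for the late granulocyte list. At 48 h that list was at 1181 against 154 CPM in CAF-1 OFF and at 12870 against 15401 CPM in HOXA9 OFF. As sums, these levels can rest on a few genes of the list. By share of cells with any UMI of the list, both arms went the same way. These shares were 56.1% against 13.1% in CAF-1 OFF and 79.8% against 66.0% in HOXA9 OFF. At 48 h of CAF-1 OFF the early granulocyte list was at 3630 CPM in thinned cells with Slpi and 819 CPM in those without, and the megakaryocyte list at 734 and 229 CPM. At 96 h, when 116 of 902 thinned cells lacked Slpi, the early granulocyte list was at 4763 and 2354 CPM. The eosinophil list was at 1239 and 3415 CPM, but the share of cells with any UMI of that list was 22.0% and 22.4%. All 23423 Slpi UMIs of this library lay in the 909 of 911 kept cells that were not rich in eosinophil genes. The few eosinophil-gene-rich cells thus had no Slpi, and their part in the 3415 CPM was not tested. No contrast is read from these eosinophil levels. At 48 h of HOXA9 OFF the early granulocyte list differed little, 3566 against 3164 CPM, and the eosinophil list was at 13369 against 38056 CPM. The eosinophil list did not go the same way in every library, being at 524 against 507 CPM at 48 h of CAF-1 OFF and at 2443 against 1918 CPM at 96 h of HOXA9 OFF. Lists with many UMIs in a cell leave fewer for other genes, and the part of this in the shares was not tested.

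In HOXA9 OFF, Wfdc21 and Wfdc17 were mostly in different cells. Wfdc21 was in 11.6% and Wfdc17 in 5.74% of cells at 48 h, and they met in 6 cells, 0.657 times (0.241 to 1.43) the product; at 96 h they met in 9 cells, 0.542 times (0.248 to 1.03), with Wfdc21 in 15.8% of cells with Wfdc17 and in 29.7% of those without. These 2 intervals reach above 1; without thinning the ratios were 0.475 (0.253 to 0.809) at 48 h and 0.589 (0.350 to 0.927) at 96 h, and with another random draw of UMIs 0.433 (0.118 to 1.11) and 0.393 (0.144 to 0.853). Cells with Wfdc21 carried the late granulocyte list at 45012 CPM against 9348 CPM in other cells at 48 h, and at 209503 against 146500 CPM at 96 h. Cells with Wfdc17 carried the monocyte list at 3252 against 843 CPM at 48 h, and at 3131 against 621 CPM at 96 h, and the late granulocyte list at 47395 against 169937 CPM at 96 h. With the secondary granule gene Ltf, Wfdc21 shared cells at 2.83 times (1.95 to 3.95) the product at 48 h and 1.36 times (1.23 to 1.51) at 96 h, and Wfdc17 at 0.485 times at 96 h. The share of cells with Wfdc21 went up with the UMIs of Lcn2, a secondary granule protein gene, from 3.03% of cells with none to 47.4% of cells with 10 or more at 48 h and from 5.29% to 45.5% at 96 h.

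A few cells held a large share of the Wfdc17 UMIs. The cell with the most held 29 of 345 UMIs at 48 h and 81 of 325 at 96 h, and without it the level was 59.5 and 69.4 CPM instead of 65.0 and 92.2. The 12 cells with the most, ranked before thinning, held 39.7% and 62.2%. Their median depth was 3083.5 UMIs at 48 h, against 3539 in the other cells, and 5590 at 96 h, against 2034. At 96 h those 12 cells had no Wfdc21 UMI, Slpi at 282 CPM against 1420 CPM in the other cells, the monocyte list at 4525 against 830 CPM and the late granulocyte list at 5593 against 154417 CPM. At 48 h they had 1 Wfdc21 UMI, Slpi at 2295 against 1782 CPM and the monocyte list at 5034 against 899 CPM, so that Slpi was low in the Wfdc17-rich cells at 96 h and not at 48 h. None of them was called a doublet. Slpi and Wfdc17 shared cells at 1.08 times the product at 48 h and 0.688 times (0.458 to 0.989) at 96 h. Without thinning the latter was 0.857 (0.652 to 1.10), without doublet calls 0.699 (0.466 to 1.01) and at 650 UMIs 0.556 (0.254 to 1.05), so that an interval below 1 depended on the setting. In cells thinned to 1300 UMIs, Slpi was in 49.1% of cells with Wfdc17 at 96 h against 72.4% of those without. Slpi and Wfdc21 shared cells at 1.01 and 1.03 times the product, within counting error of 1.

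**Figure D5:**
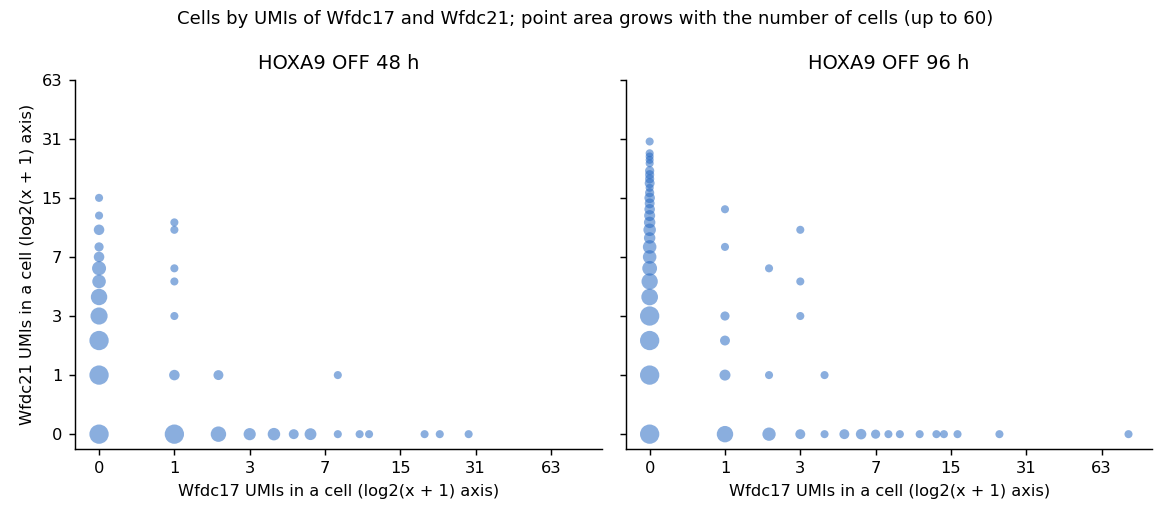
UMIs of Wfdc17 (x) against UMIs of Wfdc21 (y) per cell in the 48 h and 96 h libraries of HOXA9 OFF, before thinning, on axes of log2 of UMIs plus 1; the area of a point grows with the number of cells, up to 60. The cells with the most Wfdc17, 29 UMIs at 48 h and 81 at 96 h, lie on the x axis without a Wfdc21 UMI.

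Gene by gene over single cells, given as description, Slpi at 48 h of CAF-1 OFF went most with Elane (Spearman rho 0.62, 907 cells), Mmp8, Tmsb4x, Plac8 and Ms4a3 (0.50 to 0.43), and at 96 h with Elane (0.48, 902 cells), Ms4a3, Plac8, Tmsb4x and Pglyrp1 (0.34 to 0.29). Tgm3 at 96 h went most with Slpi (0.21) and then with Elane and Pf4 (0.16 each). At 96 h of HOXA9 OFF, over 1376 cells, Wfdc17 went most with Pld4 (0.34), Clec4a3 (0.32), Ctss, Ccl9 and Npc2 (0.27 each), genes of monocytes and their lysosomes. Wfdc21 went most with Lcn2 (0.34), Camp (0.31), Ltf (0.30), Stfa3 and Ngp (0.28 each), all but Stfa3 genes of secondary granules. Slpi had no close companion there, its highest rho being 0.16 with Asprv1. All genes of a cell share its capture and depth, and no finding is read from these correlations in sparse counts.

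On the chromosome, Wfdc17 and Wfdc21 lie 40670 bases apart on chromosome 11. Wfdc18, a related gene 2734 bases from Wfdc17, had 0 UMIs along the CAF-1 OFF course and 0, 2 and 2 along that of HOXA9 OFF. Heatr6, 990 bases from Wfdc21, was at 16.0, 19.2 and 48.2 CPM through estradiol withdrawal and at 16.7 to 22.2 CPM through CAF-1 depletion. The annotation places the long non-coding RNA gene Gm52561 and a microRNA gene inside Tgm3 and another microRNA gene inside Slpi; none of these is a gene of the count table, and whether counting used strand is not given in the sources used here. Near Slpi on chromosome 2, the seminal vesicle genes Svs5 and Svs6 had no UMI.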

How the data were processed

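Per the labels, the authors made 3' single-cell libraries (10x Chromium, v2 chemistry) and processed them with Cell Ranger 3.0.1 against mm10; the deposited values were raw UMI counts per cell and gene. Barcodes with 200 to 6000 genes and at most 10% mitochondrial UMIs were kept. Counts were summed per library and divided by the library total (CPM); a 10 CPM pseudocount preceded log2 ratios, and counts over all genes used a mean of at least 20 CPM and 2-fold. With 1 library per group no test was made. Intervals are exact (95%; Poisson for CPM, Clopper-Pearson for shares and ratios). Scrublet, run in scanpy 1.11.5, called 125 cells (2.13%), which were kept. Trimmed-mean factors came from edgeR 4.0.16. The calculations were checked on simulated counts. The members and gene lists were chosen with earlier results of these data known. Named were the members, their families, the 5 genes nearest over libraries and over cells, and the 2 neighbours on each side. Co-detection by marker list, by level of another gene, in the Wfdc17-rich and the eosinophil-gene-rich cells, per-cell genes at 48 h and the removal of shared barcodes were added after seeing the data. Positions and sequences are from RefSeq (GRCm38.p6); 4 members matched by position and 3 by promoter.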

Additional observations from a re-analysis of the deposited data

Results flagged for a closer look

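Cathepsin G (Ctsg) went opposite ways in the arms: its level at 96 h was 1.71 times that at 0 h in CAF-1 OFF and 0.00352 times in HOXA9 OFF. Each arm is 1 library per time, and this difference was not tested.

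The barcodes left out for over 10% mitochondrial UMIs also carried the members above the 0 h level of such barcodes. Slpi was in them at 88.1, 2157 and 9907 CPM at 0, 48 and 96 h of HOXA9 OFF, the last from 3 barcodes and 47 UMIs. Through CAF-1 depletion it was at 313, 943 and 3651 CPM, against 141, 2016 and 4342 CPM in kept cells. The step in Slpi from 0 to 48 h of CAF-1 OFF was thus smaller in the removed barcodes. Wfdc17 was in them at 72.6 CPM at 48 h of HOXA9 OFF. Wfdc21 was at 29.0 CPM at 48 h and at 211 CPM at 96 h of HOXA9 OFF, the latter from 1 UMI. Tgm3 was at 41.2 CPM at 48 h and 313 CPM at 96 h of CAF-1 OFF.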

How the results depend on the processing

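No paired analysis was possible because each group had 1 library. The alternatives reversed no ratio that was at least 2-fold. Leaving one library out was not possible for the same reason, so that no value has a check between cultures. The limits set by depth are a 3-UMI floor of 0.537 to 0.851 CPM per library and shares of cells that follow the depth compared.

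The log2 ratio of Slpi at 96 h of CAF-1 OFF, 4.85, was 4.52 with a pseudocount of 50 CPM, 4.66 over all deposited barcodes and 5.28 at no more than 5% mitochondrial UMIs. That of Slpi at 96 h of HOXA9 OFF, 3.12, was 2.84 with 50 CPM, 3.60 with trimmed-mean factors, 3.68 with median-of-ratios factors, 2.70 with mitochondrial and ribosomal protein genes out of the total and 3.73 at 5% mitochondrial UMIs. Tgm3 at 96 h was 7.48 with 1 CPM and 2.97 with 50 CPM after CAF-1 depletion (5.03), and 2.73 and 0.37 after estradiol withdrawal (1.20). After 96 h of depletion, Wfdc17 (-0.14) was -0.82 with 1 CPM and Wfdc21 (0.29) was -0.12 at 5% mitochondrial UMIs, a change of sign of a log2 ratio below 1 that was also seen for Wfdc21 at 48 h (0.08 to -0.12). A larger pseudocount lowers the ratio of a gene that is low at 0 h by construction; other causes were not tested.

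Counts of genes moved with the same settings. With pseudocounts of 1 and 50 CPM, the 132 higher and 2 lower genes at 48 h of CAF-1 OFF became 260 and 34 higher and 8 and 1 lower, and the 250 higher and 41 lower at 96 h became 425 and 94 higher and 93 and 7 lower. With 50 CPM, HOXA9 OFF had 290 higher (621) and 352 lower (940) at 48 h and 556 higher (865) and 992 lower (1906) at 96 h. At 1.5-fold there were 339 higher and 61 lower at 48 h and 561 and 421 at 96 h of CAF-1 OFF, and 981 and 1678 at 48 h of HOXA9 OFF. At 4-fold there were 22 and 1, 60 and 1, 204 and 152, and 412 and 786 in the 4 comparisons. With a mean of at least 50 CPM there were 0 lower at 48 h of CAF-1 OFF, 163 higher and 25 lower at 96 h, 372 and 605 at 48 h of HOXA9 OFF and 442 and 1223 at 96 h. With no minimum level, 4 genes were lower at 48 h of CAF-1 OFF and 1391 higher at 96 h of HOXA9 OFF. Trimmed-mean factors gave 1 and 21 lower in CAF-1 OFF, and median-of-ratios factors 1301 higher at 96 h of HOXA9 OFF.

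Shares of cells with a UMI at 96 h, thinned to 650 and 2600 UMIs, not thinned and with 2 UMIs required, were 77.3%, 94.2%, 97.6% and 74.7% for Slpi (87.1%) and 17.5%, 42.5%, 56.1% and 9.31% for Tgm3 (28.4%) in CAF-1 OFF. In HOXA9 OFF they were 52.3%, 81.0%, 82.1% and 44.5% for Slpi (71.4%), 2.06%, 10.3%, 5.36% and 1.24% for Wfdc17 (4.14%), and 20.4%, 37.3%, 37.7% and 14.1% for Wfdc21 (29.1%). With 2 UMIs required, Slpi and Tgm3 met at 2.14 and 1.21 times the product at 48 and 96 h of CAF-1 OFF. Wfdc17 was then in 17 and Wfdc21 in 194 of 1376 cells at 96 h of HOXA9 OFF. They met in 0 cells, 0 times the product with an upper limit of 1.54, so nothing is read from that 0.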
